A study of Mus musculus with 2 samples.

Results

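The contactins and contactin-associated proteins are neuronal cell adhesion molecules. Of the 32285 genes listed in the single-cell count tables, 9 were chosen by symbol: *Cntn1*, *Cntn2*, *Cntn3*, *Cntn4*, *Cntn5*, *Cntn6*, *Cntnap2*, *Cntnap4* and *Cntnap5a*. The cells came from the cerebral cortex of E16.5 (embryonic day 16.5) mouse embryos, per the labels of the EomesDot line, an *Eomes-Cre* line, and both libraries were labelled as WT controls. There were 2 libraries and no mutant or treated group, and whether a library held 1 embryo or several is not given by the labels. *Eomes* marks intermediate progenitors of the cortex.

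Contactins carry immunoglobulin and fibronectin repeats and are held in the outer membrane by a lipid anchor, so they act through partners in the same or in a facing membrane. Contactin-associated proteins (Caspr proteins) are transmembrane relatives of the neurexins. Pairs of a contactin and a Caspr protein organise the axon next to the node of Ranvier, and in development contactins act in axon growth, fasciculation and synapse formation. Their partners include the receptor phosphatases Ptprz1 and Ptprg, the amyloid precursor family and the L1 family.

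Library 1 held 9049 barcodes with 46398156 UMIs (unique molecular identifiers, each standing for 1 captured molecule) and library 2 held 13556 barcodes with 64324236 UMIs. A total of 5966 and 10247 cells had 1500 to 60000 UMIs and under 10% mitochondrial UMIs, with medians of 5706 and 4938 UMIs. The libraries shared 21 barcode sequences among these cells. Cells were typed by marker genes, none of which is a contactin or Caspr gene, and 64.7% and 58.9% of the cells received a neuron or progenitor type. The 15 types with at least 20 cells in each library held between 28 and 1170 cells per library. Subplate neuron-like cells numbered only 5 and 1, so the comparison of subplate with layer 6 neurons was not run. Of 24 markers kept out of the typing, 20 were higher in their own type than in the other types in both libraries, and the exceptions were *Tiam2*, *Plxnd1*, *Vip* and, in direct striatal neurons, *Ppp1r1b*. These markers covered 12 of the 15 types, with none for layer 5, hippocampal or LGE-type cells, and *Tiam2*, the only one for newborn neurons, was lower there than in the other types in both libraries (305 against 390 CPM and 347 against 377 CPM). *Vip* was at 0 UMIs in CGE interneurons of both libraries. The dissection is labelled cerebral cortex, but cells with striatal and hippocampal markers were present as well. Among cells on the excitatory side 13.8% and 13.0% lay near a boundary between types and stayed untyped, and on the GABAergic side 4.08% and 4.50% did.

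Positions are those of RefSeq (GRCm38.p6). *Cntn1* lies at chr15:92051152-92341967, *Cntn2* at chr1:132509425-132543251, *Cntn3* at chr6:102163304-102564614, *Cntn4* at chr6:105677632-106700141 and *Cntn5* at chr9:9634223-10904775. *Cntn6* lies at chr6:104492662-104863406, *Cntnap2* at chr6:45060061-47301393, *Cntnap4* at chr8:112569798-112882707 and *Cntnap5a* at chr1:115684737-116587323. The spans run from 33.8 kb for *Cntn2* to 2241 kb for *Cntnap2*, and no other protein-coding gene overlaps any of them. *Cntn6* and *Cntn4* are next to each other with a gap of 814 kb, and the gene on the other side of *Cntn6* is *Chl1*, which encodes an L1 family protein. Whether reads in introns were counted is not given in the sources used here, so levels were compared between cell types for each gene and not between genes.

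*Cntn5* and *Cntnap2* had the steepest peaks, each in a single type. RefSeq gives each of these genes 2 windows around annotated starts. The most upstream window of each is shown to place the genes, and the other windows are not described. Lower case marks the 250 bases before the start and capitals mark the 50 bases from it, 5′ to 3′ on the strand of the gene. The *Cntn5* window is chr9:10904726-10905025 (minus strand) and the *Cntnap2* window is chr6:45059811-45060110 (plus strand).
*Cntn5*: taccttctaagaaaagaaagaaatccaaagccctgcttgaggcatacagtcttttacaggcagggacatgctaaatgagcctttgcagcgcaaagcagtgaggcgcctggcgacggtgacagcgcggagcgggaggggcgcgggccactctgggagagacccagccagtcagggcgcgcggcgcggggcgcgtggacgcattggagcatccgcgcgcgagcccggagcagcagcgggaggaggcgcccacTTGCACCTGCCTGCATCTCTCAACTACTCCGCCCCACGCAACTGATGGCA
*Cntnap2*: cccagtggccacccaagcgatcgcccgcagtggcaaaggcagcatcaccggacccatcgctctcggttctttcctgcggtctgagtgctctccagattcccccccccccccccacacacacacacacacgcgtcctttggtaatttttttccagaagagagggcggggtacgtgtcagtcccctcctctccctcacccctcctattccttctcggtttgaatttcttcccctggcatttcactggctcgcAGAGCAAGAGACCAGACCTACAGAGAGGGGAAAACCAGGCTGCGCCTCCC
G and C made up 63.7% of the *Cntn5* window and 59.7% of the *Cntnap2* window, against a median of 52.7% over all RefSeq windows. Neither window held CAGATG, letters that proneural bHLH factors bind, on either strand, and 17.2% of 32851 windows did. Neither held TAATTA, letters that homeodomain factors bind, and 5.29% of the windows did. Neither held CCCNNGGG, letters that EBF factors bind, and 13.7% did. No motif holds another. The 3' tags do not show which start was used in these cells.

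Each of the 9 genes had its own order of types, and each had the same highest type in both libraries. Levels are given as CPM, the UMIs of a gene scaled to 1000000 UMIs summed over all cells of a type in a library. Upper-layer neurons held the highest level of *Cntn2*, direct striatal neurons that of *Cntn5*, Cajal-Retzius cells that of *Cntnap2*, MGE (medial ganglionic eminence) interneurons those of *Cntn4* and *Cntnap4*, layer 5 neurons those of *Cntn3* and *Cntn6*, hippocampal neurons that of *Cntnap5a*, and glial progenitors that of *Cntn1*.

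**Figure D1:**
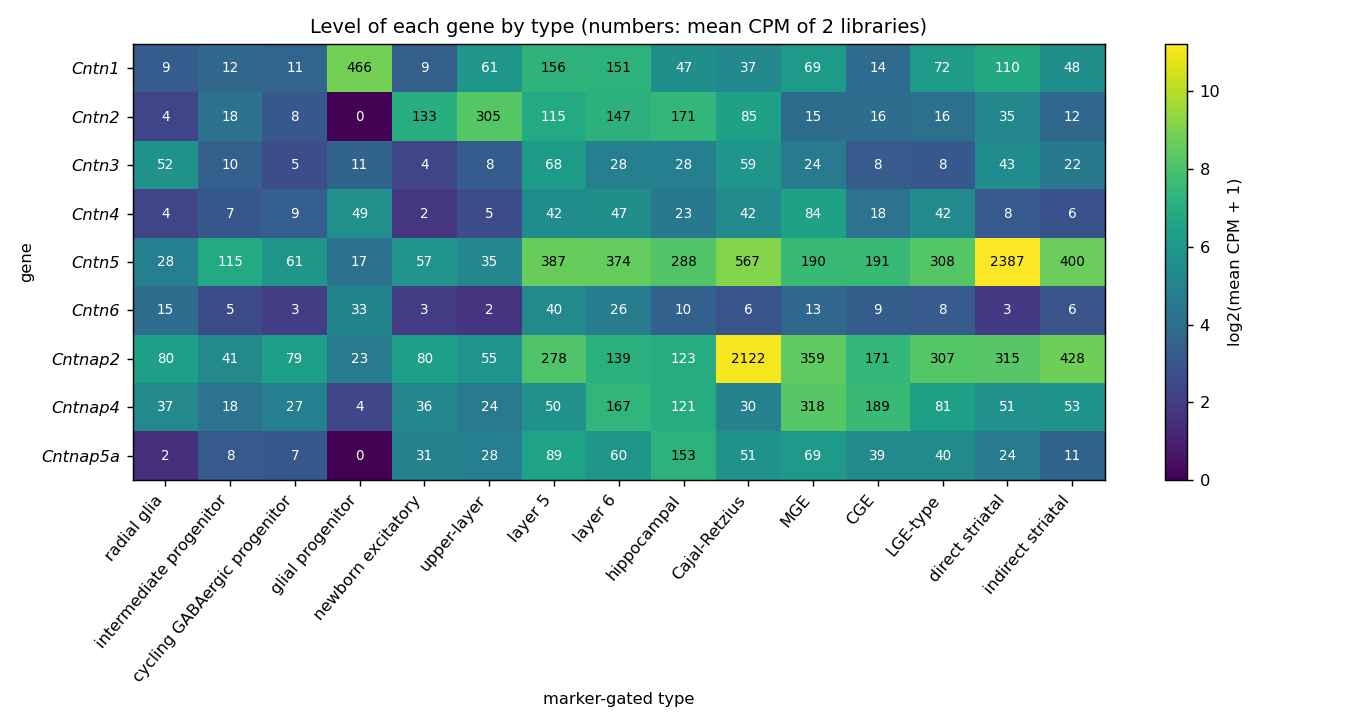
Mean level of each of the 9 genes (rows) in the 15 marker-gated types (columns). Numbers give the mean CPM of 2 libraries and colour its log2(mean CPM + 1). *Cntn5* in direct striatal neurons and *Cntnap2* in Cajal-Retzius cells are the brightest fields.

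*Cntn1* encodes contactin-1, a ligand of Ptprz1 and a part of the paranodal complex of myelinated axons. In glial progenitors it measured 476 CPM in library 1 and 456 CPM in library 2 (466 ± 14.1, SD, n = 2). This was 2.98-fold the next type, layer 5 neurons, with 171 and 141 CPM, and the libraries of these types did not overlap. Layer 6 neurons had 171 and 130 CPM and overlapped with layer 5 neurons. Direct striatal neurons followed with 110 ± 5.92 CPM. The lowest levels, below 15 CPM on average, were found in radial glia, newborn excitatory neurons, intermediate and cycling GABAergic progenitors and CGE (caudal ganglionic eminence) interneurons. Intermediate progenitors differed between libraries, with 20.2 and 4.27 CPM.

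*Cntn2* encodes contactin-2 (TAG-1), an adhesion molecule of growing axons that partners Caspr2. Upper-layer neurons had 307 and 303 CPM. Hippocampal neurons had 145 and 197 CPM, layer 6 neurons 137 and 158 CPM, and newborn excitatory neurons 125 and 141 CPM. Those 3 types overlapped with their neighbours in the order, and all lay below both upper-layer values. Every GABAergic type and every progenitor type had a mean of at most 35.3 CPM. The 85 glial progenitors held 0 *Cntn2* UMIs, which allows up to 4.34 CPM. A *Cntn2* UMI was found in 77.2% of upper-layer neurons in library 1 (95% Wilson interval 73.9 to 80.2%) and in 74.4% in library 2 (71.8 to 76.8%). After thinning every cell to 1500 UMIs the shares were 34.2% and 35.7%. In endothelial cells, which should lack it, 13.3% and 5.13% held a UMI before thinning and 0% and 1.28% after it. The median endothelial cell held 8211 and 6499 UMIs and the median upper-layer neuron 6972 and 5618 UMIs. These intervals and limits cover counting error only.

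*Cntn3*, *Cntn4*, *Cntn5* and *Cntn6* form a subgroup whose proteins bind Ptprg. *Cntn3* was highest in layer 5 neurons (75.2 and 61.3 CPM), Cajal-Retzius cells (58.5 and 59.1 CPM) and radial glia (53.3 and 50.9 CPM), the last a level that no other member reached in radial glia relative to its own peak. In layer 6 neurons *Cntn3* was at 8.19 CPM in library 1 and 48.1 CPM in library 2, and 1 cell supplied 28 of the 68 UMIs of library 2. Fibroblasts of the meninges, a cell type outside the comparisons, had 61.2 and 77.0 CPM from 4 and 27 cells. *Cntn4* peaked in MGE interneurons at 90.9 and 76.5 CPM, above glial progenitors at 45.9 and 51.8 CPM. Glial progenitors, layer 5 and layer 6 neurons, Cajal-Retzius cells and LGE-type (lateral ganglionic eminence) interneurons lay between 41.9 and 48.9 CPM on average, and each overlapped with its neighbour in the order. The libraries differed in layer 5 neurons (23.5 and 61.3 CPM) and LGE-type interneurons (23.6 and 60.2 CPM), so the places of these types in the order rest on the library used. *Cntn6* was rare, with a UMI in 3.35% and 3.25% of all cells. Its highest levels were 38.6 and 41.8 CPM in layer 5 neurons and 26.2 and 38.8 CPM in glial progenitors, which overlapped.

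For *Cntn5*, direct striatal neurons, which later project in the direct pathway of the basal ganglia, had 2458 and 2316 CPM. The next type, Cajal-Retzius cells, had 667 and 467 CPM, so the mean of direct striatal neurons was 4.21-fold higher and the libraries did not overlap. In library 1 a single Cajal-Retzius cell supplied 48.9% of the UMIs, and without the highest cell of each library this type was at 341 and 390 CPM, against 353 and 367 CPM in layer 5 and 2359 and 2226 CPM in direct striatal neurons, so Cajal-Retzius cells then overlapped with layer 5 neurons and both stayed below direct striatal neurons. Layer 5 neurons (384 and 391 CPM) and layer 6 neurons (381 and 367 CPM) were close in level, and each repeated well between libraries. Upper-layer neurons had 42.8 and 28.1 CPM and radial glia 28.5 and 26.8 CPM. Indirect striatal neurons gave 120 CPM in library 1 and 681 CPM in library 2, where 1 cell with 201 UMIs supplied 57.6% of the sum. Without that cell library 2 stood at 289 CPM.

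Within direct striatal neurons the *Cntn5* UMIs were spread over most cells. A UMI was found in 71.1% of them in library 1 (64.2 to 77.0%) and in 65.2% in library 2 (59.6 to 70.4%), and 61.6% and 57.1% still held one at 1500 UMIs. The median cell had 5 and 4 UMIs and the highest had 96 and 127. The top 10% of cells carried 44.2% and 45.4% of the UMIs. In upper-layer neurons only 6.42% and 5.64% of cells held a UMI. Endothelial cells held one in 6.67% and 2.56% of cells (3.33% and 0% after thinning), with 95% intervals of 1.85 to 21.3% and 0.706 to 8.88%. The levels were 42.8 and 28.1 CPM in upper-layer neurons and 12.2 and 9.24 CPM in endothelial cells, and the highest upper-layer neuron held 46 and 35 UMIs against 2 and 4 in the highest endothelial cell.

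*Cntnap2* encodes Caspr2, which clusters potassium channels beside the node and is linked to epilepsy and autism. Cajal-Retzius cells, the reelin-secreting neurons of the cortical surface, had 2255 and 1988 CPM, a mean 4.95-fold above the next type. That type was indirect striatal neurons with 435 and 421 CPM, followed by MGE interneurons with 448 and 271 CPM, which overlapped. Direct striatal, LGE-type and layer 5 neurons had mean levels between 278 and 315 CPM. The lowest levels were 40.8 ± 0.991 CPM in intermediate progenitors and 23.1 ± 0.242 CPM in glial progenitors. A UMI was found in 85.7% of the 28 Cajal-Retzius cells of library 1 (68.5 to 94.3%) and in 81.4% of the 43 of library 2 (67.4 to 90.3%), with medians of 6 and 11 UMIs per cell. The single highest cell carried 29.8% of the UMIs of library 1 and 12.03% of those of library 2. Endothelial cells held a UMI in 6.67% and 2.56% of cells.

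*Cntnap4* encodes Caspr4, a protein of interneuron synapses. It had 298 and 339 CPM in MGE interneurons, 191 and 187 CPM in CGE interneurons and 191 and 144 CPM in layer 6 neurons. MGE interneurons stood above all other types in both libraries, while CGE interneurons and layer 6 neurons overlapped. Hippocampal neurons followed with 105.5 and 137 CPM, and layer 5 neurons had 41.5 and 58.6 CPM. *Cntnap5a* belongs to a set of close paralogs with *Cntnap5b* and *Cntnap5c*, so its counts could share reads with them. It measured 147 and 158 CPM in hippocampal neurons and 87.5 and 90.6 CPM in layer 5 neurons, and these did not overlap. In Cajal-Retzius cells it was 97.4 CPM in library 1 and 5.37 CPM in library 2, resting on 20 and 2 UMIs. Glial progenitors held 0 *Cntnap5a* UMIs, which allows up to 4.34 CPM.

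**Figure D2:**
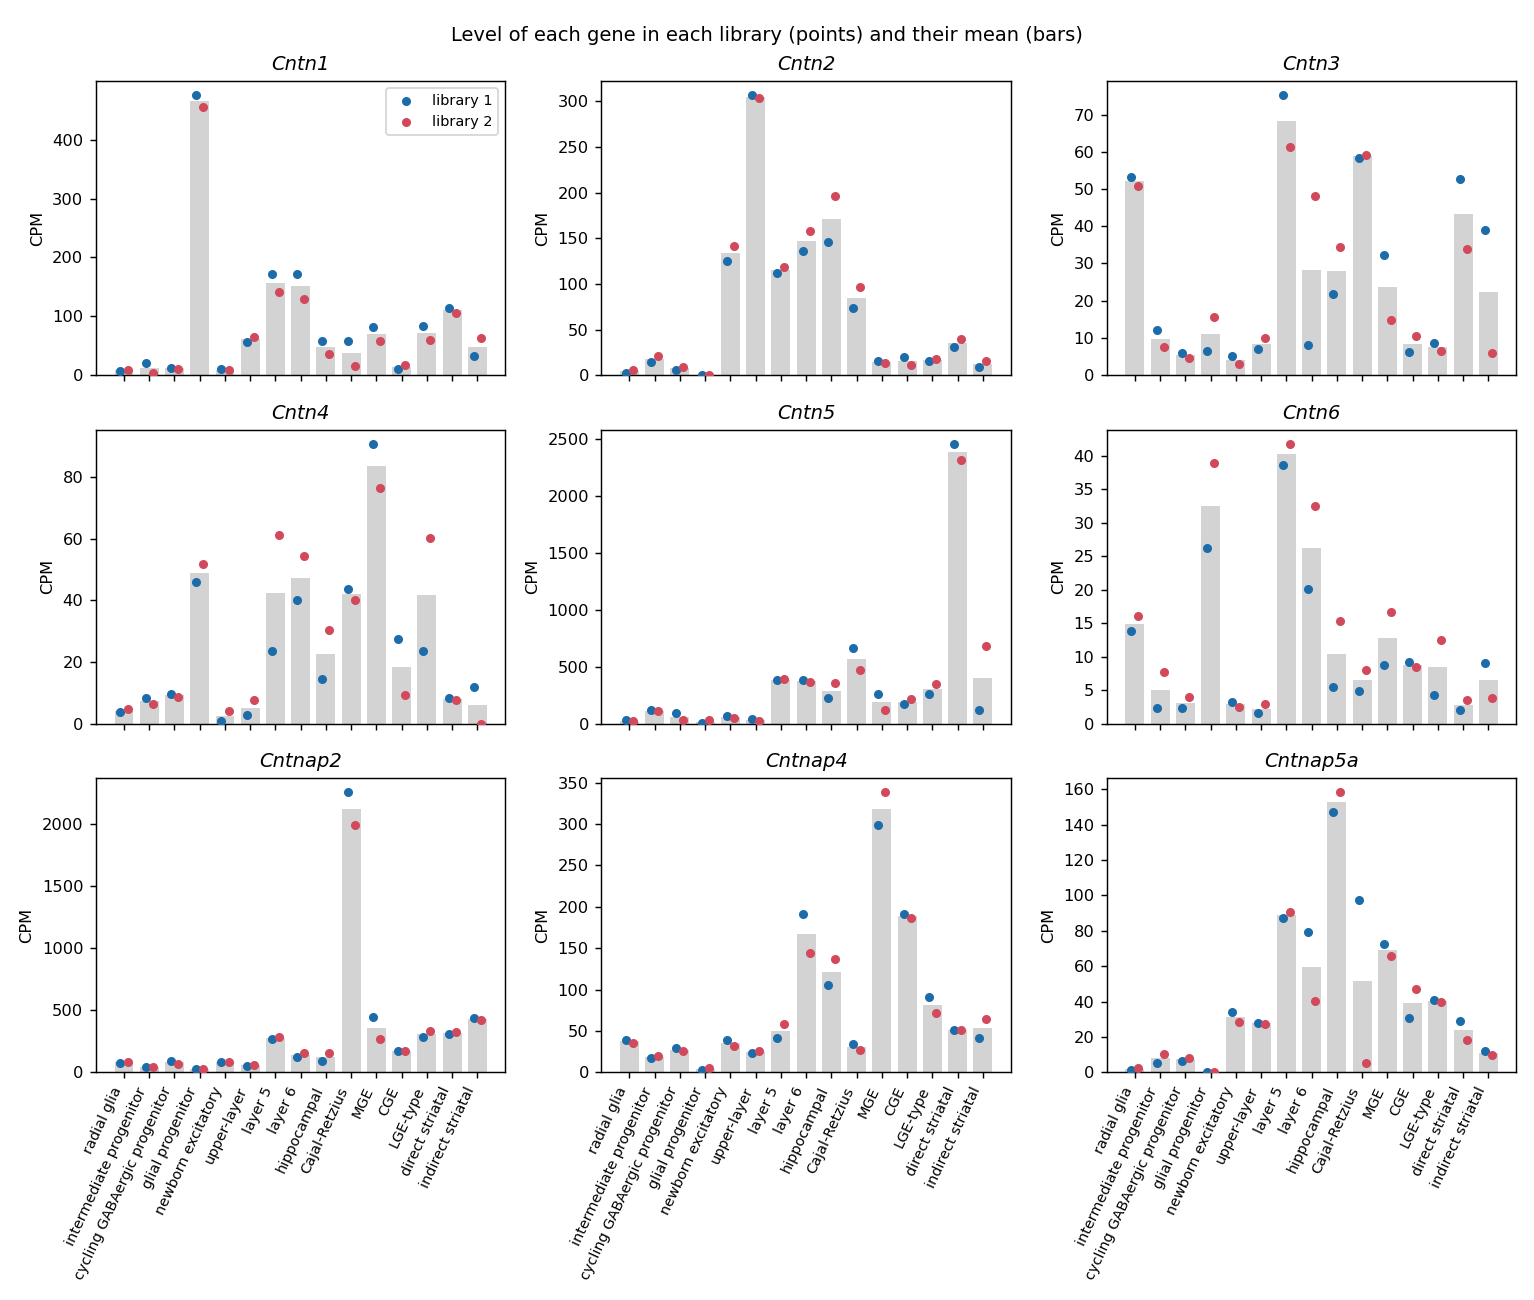
Level of each gene in CPM (vertical axes start at 0 and differ between panels) in the 15 types, with bars for the mean of 2 libraries and points for each library. The points lie close together for *Cntn2*, and far apart for *Cntn3* in layer 6 neurons, *Cntn5* in indirect striatal neurons and *Cntnap5a* in Cajal-Retzius cells.

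Non-neural cells were typed too. In endothelial cells the 9 genes ranged from 0 to 31.4 CPM over the libraries, and in erythroid cells from 0 to 12.1 CPM. The highest of these values was *Cntnap2* in endothelial cells of library 2, where 1 of 78 cells carried 14 of 17 UMIs. In the smaller non-neural types *Cntnap2* reached 40.8 CPM in mural cells of library 2 (6 UMIs) and *Cntn5* 39.6 CPM in microglia of library 1 (5 UMIs), each with 0 UMIs in the other library, and *Cntn3* was at 61.2 and 77.0 CPM in fibroblasts (4 and 16 UMIs). Across the 15 types the profiles of the libraries were correlated with r between 0.665 (*Cntn3*) and 0.983 (*Cntnap2*), computed on log2(CPM + 1) as a description.

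**Figure D3:**
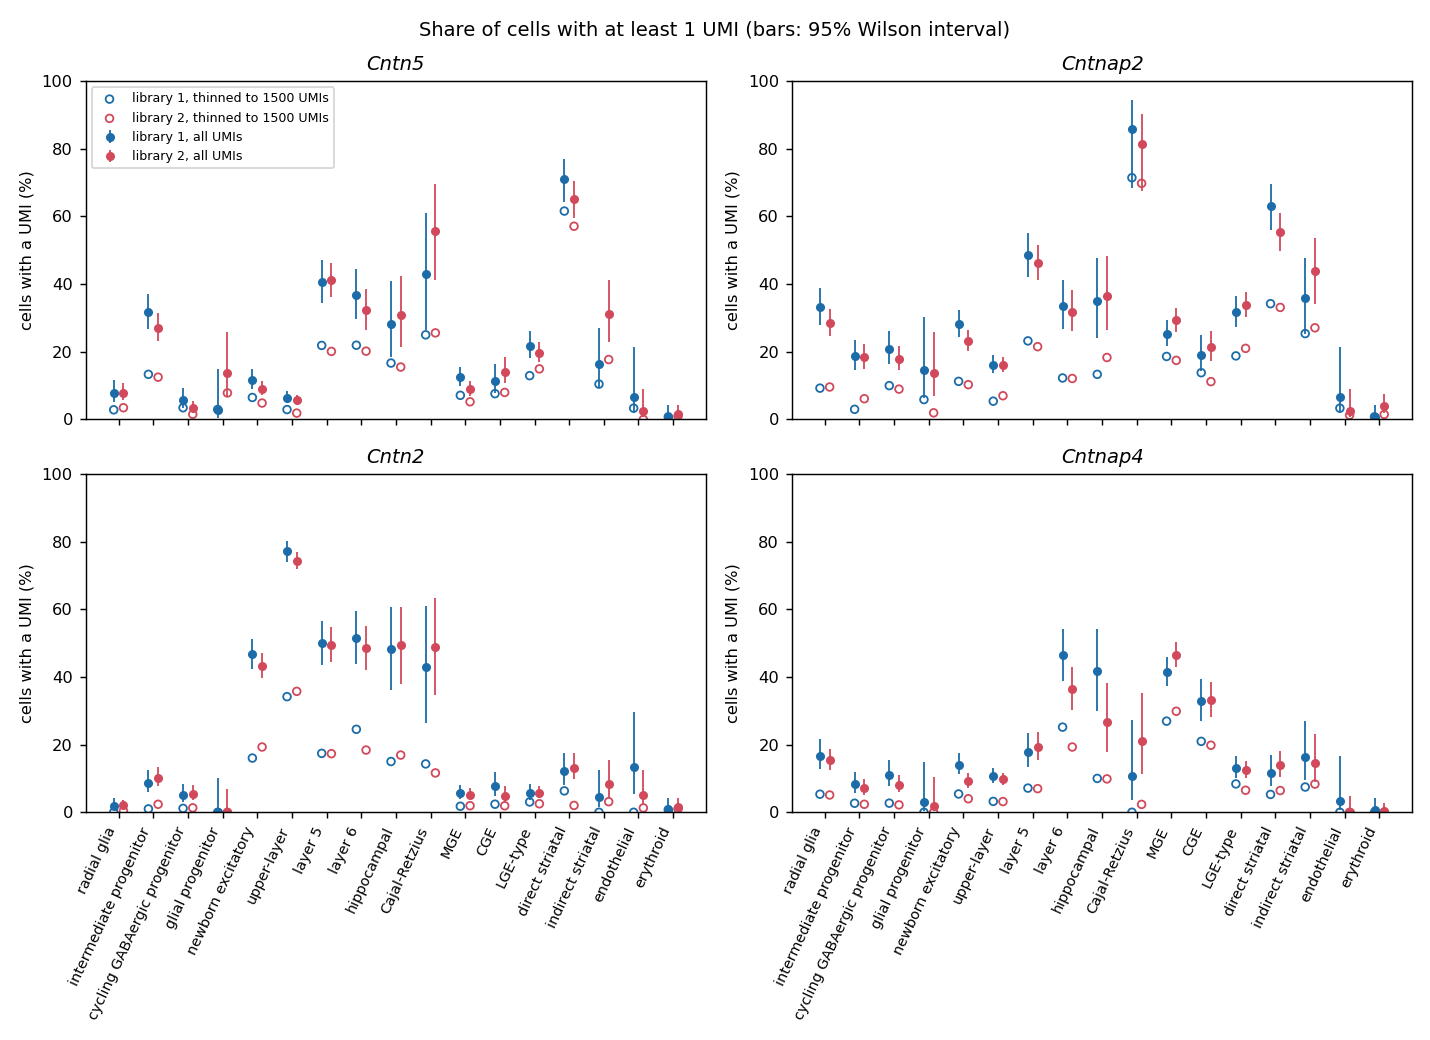
Share of cells with at least 1 UMI (vertical axes, %) of *Cntn5*, *Cntnap2*, *Cntn2* and *Cntnap4* in the 15 types and in 2 non-neural types, endothelial and erythroid cells. Filled points use all UMIs with 95% Wilson intervals, open points use cells thinned to 1500 UMIs, and colours stand for the libraries. The shares of *Cntn5* in direct striatal neurons (71.1% and 65.2%) and *Cntn2* in upper-layer neurons (77.2% and 74.4%) stand far above the background types.

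Comparisons between types were tested with edgeR's quasi-likelihood test on the UMI sums of each library and type, with the library as a block and adjusted p-values over 14336 genes. A gene was called at an adjusted p under 0.05. Log2 fold changes are given with their standard error (SE), and where a side joins several types they compare the means of the log values. Because both sides of each comparison come from the same 2 libraries and nothing shows that these are separate litters, the p-values measure only how well the libraries repeat. The comparisons share types and sums, so they are given side by side and not as independent results.

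Neurons against progenitors asked where along differentiation the 9 genes are used. Of the 9 genes 7 were higher in the mean of the neuron types and 0 were lower. This did not hold for each neuron type. *Cntn5* was at 35.4 CPM in upper-layer and 57.0 CPM in newborn neurons, below 115 CPM in intermediate progenitors. Upper-layer neurons lay below radial glia in *Cntnap2* (55.4 against 80.3 CPM) and *Cntnap4* (24.1 against 37.5 CPM). *Cntn4* was no higher in newborn neurons (2.46 CPM) than in radial glia (4.14 CPM). Glial progenitors were not on the progenitor side, and there *Cntn1*, at 466 CPM, was above every neuron type. Over all genes 65.9% were called, 28.8% higher and 37.1% lower in neurons. The median log2 fold change of the 9 genes was 1.63, against -0.06 over all genes. *Cntnap5a* differed most, at 54.3 ± 2.45 CPM in neurons against 5.75 ± 1.90 CPM in radial glia, intermediate progenitors and cycling GABAergic progenitors (log2 fold change 3.10 ± 0.27 SE, adjusted p = 4.9e-12). *Cntn2* (2.67 ± 0.16), *Cntn1* (2.39 ± 0.16) and *Cntn5* (2.17 ± 0.19) followed. *Cntnap4* (1.63 ± 0.09), *Cntnap2* (1.58 ± 0.08) and *Cntn4* (1.36 ± 0.33) were also called. *Cntn3* (0.34 ± 0.23, adjusted p = 0.19) and *Cntn6* (0.38 ± 0.21, adjusted p = 0.11) did not pass. With the single highest cell left out of every sum, *Cntn4* no longer passed (1.11, adjusted p = 0.0505).

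**Figure D4:**
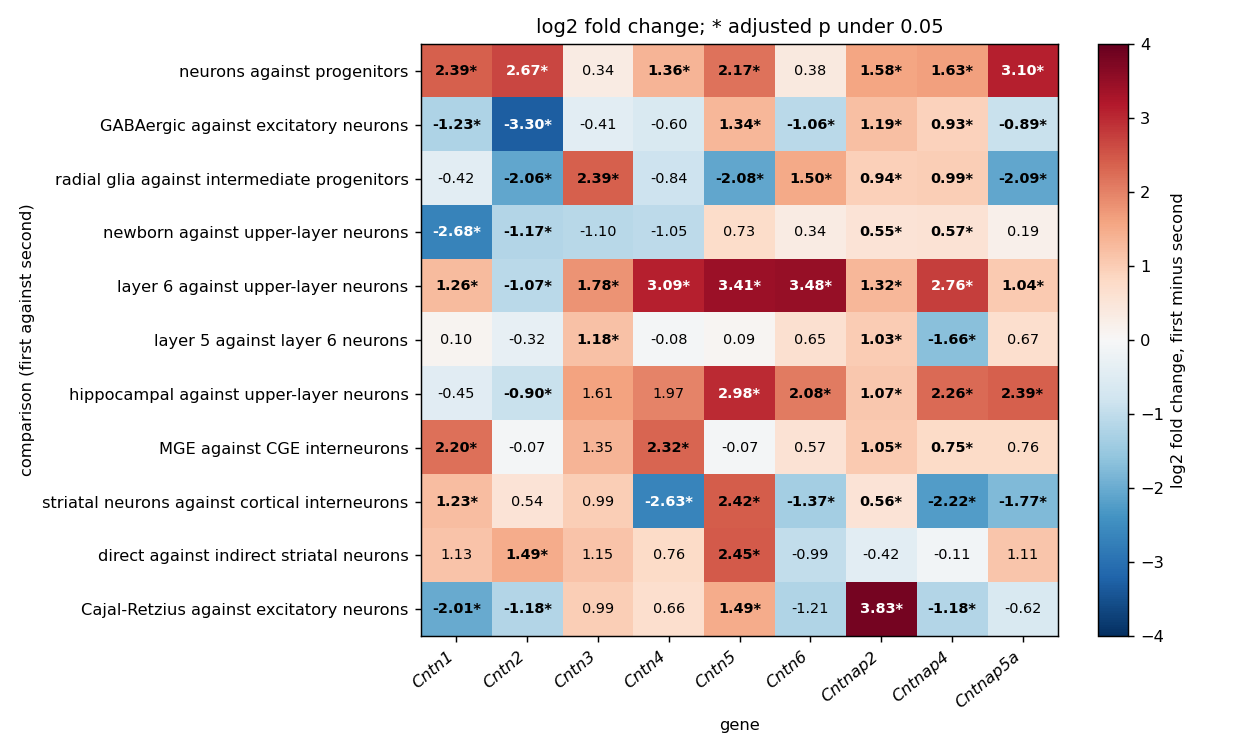
Log2 fold change (first named side minus second) of the 9 genes (columns) in the 11 comparisons (rows), with colour from blue (lower in the first) to red (higher). Bold values with an asterisk have an adjusted p under 0.05 in edgeR. All 9 genes carry an asterisk in layer 6 against upper-layer neurons, where only *Cntn2* is blue.

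GABAergic against excitatory neurons set the MGE, CGE, direct and indirect striatal types against the upper-layer, layer 5 and layer 6 types. A total of 3 genes were higher and 4 lower in GABAergic neurons, beside 13.4% of all genes higher, 17.3% lower and 30.7% in either direction. *Cntn2* was 19.5 ± 0.762 CPM in GABAergic and 189 ± 5.86 CPM in excitatory neurons, and lower in both libraries (-3.30 ± 0.11, adjusted p = 2.1e-22). *Cntn1* (-1.23 ± 0.14), *Cntn6* (-1.06 ± 0.26) and *Cntnap5a* (-0.89 ± 0.20) were also lower. *Cntn5* (1.34 ± 0.19), *Cntnap2* (1.19 ± 0.09) and *Cntnap4* (0.93 ± 0.11) were higher. The sides were mixtures: for *Cntn5* the MGE and CGE types, at 190 and 191 CPM, stood below layer 5 and layer 6 neurons. *Cntn1* was higher in direct striatal (110 CPM) and MGE cells (69.3 CPM) than in upper-layer neurons (60.9 CPM). *Cntnap5a* was at 69.0 CPM in MGE and 27.7 CPM in upper-layer cells, and *Cntn6* at 12.7 and 2.25 CPM. *Cntnap4* was at 50.7 CPM in direct and 53.2 CPM in indirect striatal neurons, below 167 CPM in layer 6 neurons. *Cntn3* and *Cntn4* did not pass (adjusted p = 0.24 and 0.21).

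Radial glia against intermediate progenitors gave calls in both directions. *Cntn3*, *Cntn6*, *Cntnap2* and *Cntnap4* were higher in radial glia and *Cntn2*, *Cntn5* and *Cntnap5a* lower, so 7 of 9 were called, beside 37.3% of all genes (21.1% higher, 16.2% lower). *Cntn3* was at 53.3 and 50.9 CPM in radial glia and at 12.01 and 7.68 CPM in intermediate progenitors (2.39 ± 0.33, adjusted p = 3.1e-07). *Cntnap2* (0.94 ± 0.19) and *Cntnap4* (0.99 ± 0.21) differed by less than *Cntn3*, and by about the same amount as each other. *Cntn5* was at 28.5 and 26.8 CPM in radial glia and at 122 and 108 CPM in intermediate progenitors (-2.08 ± 0.43, adjusted p = 0.00017). *Cntn2* (-2.06 ± 0.31) and *Cntnap5a* (-2.09 ± 0.62) had low counts in radial glia, with 25 and 11 UMIs in all. *Cntn6* rested on 86 and 34 UMIs, and its log2 ratio was 2.12 in library 1 and 0.97 in library 2. With cells thinned to 1500 UMIs before typing, 1 of the 7 calls was kept, that of *Cntn5* (-1.76, adjusted p = 0.034), beside 10% of 8269 genes called. *Cntn3* (2.91, adjusted p = 0.12), *Cntnap2* (1.85, adjusted p = 0.057) and *Cntnap4* (1.82, adjusted p = 0.25) missed the threshold with log2 fold changes no smaller than before. *Cntn2* (-0.0032) and *Cntnap5a* (-0.021) were near 0, and *Cntn6* fell under the filter.

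In newborn against upper-layer neurons, of the 9 genes 2 were higher and 2 lower in newborn neurons, beside 12.2% and 11.9% of all genes (24.1% in either direction). *Cntn1* was at 10.4 and 8.55 CPM in newborn and at 56.5 and 65.3 CPM in upper-layer neurons (-2.68 ± 0.26, adjusted p = 3.1e-10). *Cntn2* was lower as well (-1.17 ± 0.11, adjusted p = 2e-10), though newborn neurons already held 125 and 141 CPM. *Cntnap2* (0.55 ± 0.16, adjusted p = 0.0097) and *Cntnap4* (0.57 ± 0.17, adjusted p = 0.013) were slightly higher in newborn neurons. *Cntnap2* did not pass with 1 more UMI asked of each marker gate (0.38, adjusted p = 0.098), and *Cntnap4* did not pass in thinned cells (0.72, adjusted p = 0.60).

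In layer 6 against upper-layer neurons all 9 genes were called in edgeR and 8 with DESeq2. In edgeR there were 8 higher in layer 6 neurons and 1 lower, beside 13% of all genes (8.66% higher, 4.33% lower). The median log2 fold change was 1.78, against 0.00 over all genes. *Cntn5* was at 381 and 367 CPM in layer 6 and at 42.8 and 28.1 CPM in upper-layer neurons (3.41 ± 0.36, adjusted p = 3.1e-09). *Cntn6* (3.48 ± 0.36), *Cntn4* (3.09 ± 0.40) and *Cntnap4* (2.76 ± 0.16) differed by similar amounts, *Cntn6* from 68 against 29 UMIs. *Cntnap2* (1.32 ± 0.17), *Cntn1* (1.26 ± 0.19) and *Cntnap5a* (1.04 ± 0.26) were higher by less. *Cntn2* was the lower one (-1.07 ± 0.12, adjusted p = 3.1e-08). *Cntn3* (1.78 ± 0.40) rested on library 2, with log2 ratios of 0.19 in library 1 and 2.17 in library 2, and did not pass without the highest cell of each sum (1.13, adjusted p = 0.077). *Cntnap5a* did not pass with DESeq2 (1.10, adjusted p = 0.11).

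Layer 5 against layer 6 neurons gave 2 genes higher and 1 lower in layer 5, beside 3.01% and 3.86% of all genes (6.87% in either direction). *Cntnap4* was at 41.5 and 58.6 CPM in layer 5 and at 191 and 144 CPM in layer 6 (-1.66 ± 0.16, adjusted p = 3.1e-09). *Cntnap2* was at 269 and 288 CPM against 125 and 153 CPM (1.03 ± 0.16, adjusted p = 2.8e-05). *Cntn3* was called (1.18 ± 0.32, adjusted p = 0.017), but the log2 ratio was 3.05 in library 1 and 0.34 in library 2, and DESeq2 did not call it (adjusted p = 0.22). *Cntn5* had a log2 fold change of 0.09 ± 0.31 and *Cntn1* of 0.10 ± 0.19 (adjusted p = 0.93 and 0.85).

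Hippocampal against upper-layer neurons gave 5 genes higher and 1 lower in hippocampal neurons, beside 4% and 2% of all genes (6% in either direction). *Cntnap5a* was at 147 and 158 CPM against 28.1 and 27.4 CPM (2.39 ± 0.26, adjusted p = 2.2e-08). *Cntnap4* (2.26 ± 0.21) and *Cntnap2* (1.07 ± 0.22) were higher and *Cntn2* lower (-0.90 ± 0.14). *Cntn5* was higher (2.98 ± 0.42), with log2 ratios of 2.36 and 3.61. *Cntn6* was called on 11 UMIs in hippocampal neurons (2.08 ± 0.61, adjusted p = 0.033, log2 ratios 1.33 and 2.05), and it did not pass without doublets (adjusted p = 0.15), with stricter gates (adjusted p = 0.14), without the library block (adjusted p = 0.11) or without the highest cell of each sum (1.04, adjusted p = 0.68).

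MGE against CGE interneurons compared the main sources of cortical interneurons, of which the MGE gives rise to SST+ cells. Here 4 genes were higher in MGE interneurons and 0 lower, beside 3.42% and 3.36% of all genes (6.78% in either direction). *Cntn4* was at 90.9 and 76.5 CPM in MGE and at 27.4 and 9.19 CPM in CGE interneurons (2.32 ± 0.38, adjusted p = 3e-05, log2 ratios 1.69 and 2.93). *Cntn1* was at 81.2 and 57.3 CPM against 11.2 and 17.0 CPM (2.20 ± 0.35, adjusted p = 1.6e-05). *Cntnap2* (1.05 ± 0.16) and *Cntnap4* (0.75 ± 0.13) were higher as well, *Cntnap2* with 448 and 271 CPM in MGE interneurons of the 2 libraries. *Cntn5* was at 261 and 119 CPM in MGE and at 169 and 213 CPM in CGE interneurons, which overlapped (-0.07 ± 0.36, adjusted p = 0.97).

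Striatal neurons against cortical interneurons set the direct and indirect types against the MGE and CGE types. There were 3 genes higher and 4 lower in striatal neurons, beside 6.4% and 9.03% of all genes (15.4% in either direction). *Cntnap4* was at 52.0 ± 8.05 CPM in striatal neurons and at 254 ± 12.6 CPM in interneurons (-2.22 ± 0.14, adjusted p = 8.2e-15). *Cntnap5a* (-1.77 ± 0.34) was lower too. *Cntn4* was lower on 23 UMIs in striatal neurons (-2.63 ± 0.54), with log2 ratios of -2.22 and -3.25. *Cntn5* was higher on the joined sides (2.42 ± 0.25, adjusted p = 2.3e-09), with log2 ratios of 1.37 in library 1 and 2.97 in library 2. The indirect striatal sums stood at 120 and 681 CPM in these libraries. In library 1 this was below MGE (261 CPM) and CGE interneurons (169 CPM). In library 2 it was 289 CPM without the highest cell, above MGE (119 CPM) and CGE interneurons (213 CPM). *Cntn1* was higher on the joined sides (1.23 ± 0.28), with 110 CPM in direct and 47.7 CPM in indirect striatal neurons against 69.3 CPM in MGE and 14.1 CPM in CGE interneurons, so the indirect type lay below the MGE type on average. *Cntn6* was lower on 12 UMIs (-1.37 ± 0.45, adjusted p = 0.031), and it did not pass under stricter gates (adjusted p = 0.13), without doublets (adjusted p = 0.076) or without the library block (adjusted p = 0.079). *Cntnap2* was higher on the joined sides (0.56 ± 0.12), but MGE interneurons (448 and 271 CPM) lay above direct striatal neurons (307 and 322 CPM) on average, while CGE interneurons were at 171 and 170 CPM. It did not pass under stricter gates (0.33, adjusted p = 0.093).

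Direct against indirect striatal neurons gave 2 genes higher and 0 lower in direct striatal neurons, beside 2.02% and 1.49% of all genes (3.51% in either direction). *Cntn5* was higher (2.45 ± 0.34, adjusted p = 2.6e-06). Its log2 ratio was 4.34 in library 1 and 1.76 in library 2, and every direct value exceeded every indirect value. *Cntn2* was called by a narrow margin (1.49 ± 0.44, adjusted p = 0.0498) from 86 against 11 UMIs, and 6 of the 9 alternatives that gave a test did not call it, with adjusted p from 0.0026 to 0.74 over all 9. *Cntnap2* had 307 and 322 CPM in direct and 435 and 421 CPM in indirect neurons and did not pass (-0.42 ± 0.17, adjusted p = 0.26).

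Cajal-Retzius against excitatory neurons set these cells against the upper-layer, layer 5 and layer 6 types. There were 2 genes higher and 3 lower in Cajal-Retzius cells, beside 7.58% and 7.64% of all genes (15.2% in either direction). *Cntnap2* was at 2255 and 1988 CPM against a mean of 158 ± 12.8 CPM (3.83 ± 0.12, adjusted p = 7.8e-24). *Cntn5* was higher (1.49 ± 0.34, adjusted p = 0.0019), and 1 cell with 67 UMIs supplied 48.9% of its sum in library 1. The excitatory side was a mixture. Without the highest cell of each library, *Cntn5* was at 341 and 390 CPM in Cajal-Retzius cells and at 353 and 367 CPM in layer 5 neurons. Upper-layer neurons were then at 33.8 and 23.2 CPM. *Cntn2* (-1.18 ± 0.21) and *Cntnap4* (-1.18 ± 0.35) were lower. For *Cntnap4*, Cajal-Retzius cells (30.5 CPM) lay below layer 6 (167 CPM) and layer 5 neurons (50.1 CPM) but above upper-layer neurons (24.1 CPM) on average. *Cntn1* was lower on 18 UMIs (-2.01 ± 0.41), with log2 ratios of -1.01 and -2.65. Cajal-Retzius cells were few, with 28 and 43 cells.

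**Figure D5:**
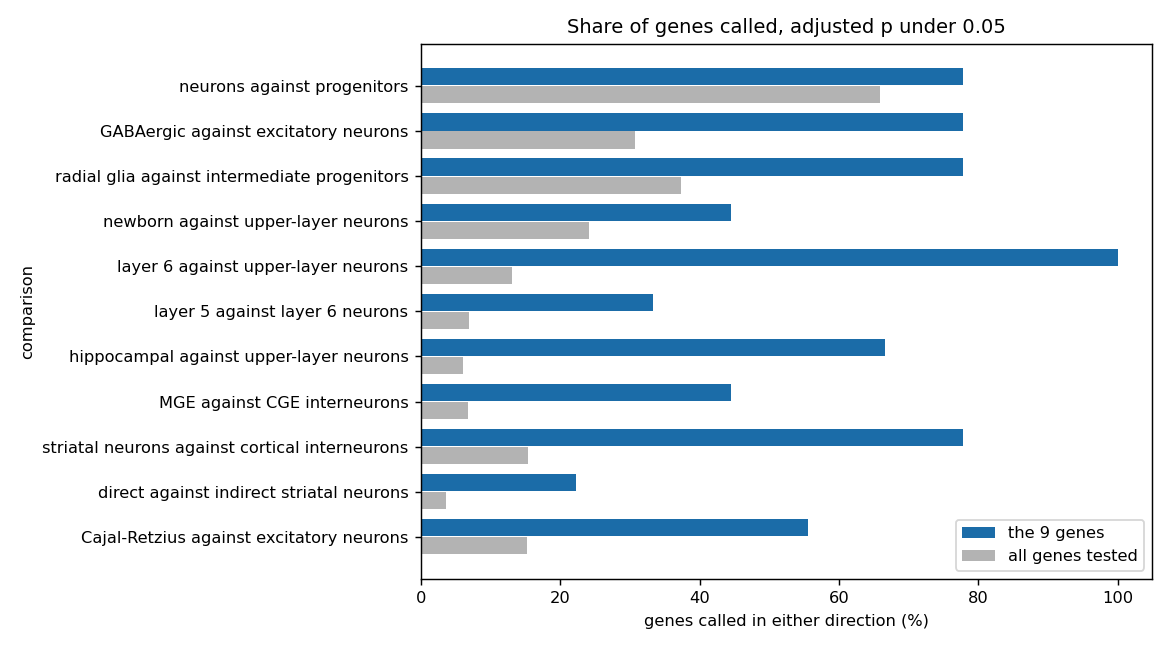
Share of genes called in either direction (horizontal axis, %) in each of the 11 comparisons, for the 9 genes (blue) and for all 14336 genes tested (grey). In layer 6 against upper-layer neurons all 9 genes were called, against 13% of all genes, and in neurons against progenitors the shares lay closest, with 7 of 9 genes against 65.9%.

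The binding partners and relatives were followed with lists of 16 and 4 genes, the relatives being *Cntnap1*, *Cntnap3*, *Cntnap5b* and *Cntnap5c*. *Cntnap1* was at or below 2.48 CPM on average in each of the 15 types and at 3.40 CPM in mural cells (0 and 1 UMIs), and was not tested. In neurons against progenitors 9 partners were higher and 4 lower of the 16 tested, beside 65.9% of all genes called in either direction. *Ank3*, which encodes the axon initial segment protein ankyrin-G, was at 897 CPM in neurons and 155 CPM in progenitors (3.09 ± 0.07), and *L1cam*, an adhesion molecule of axons, at 72.7 and 10.2 CPM (3.07 ± 0.10). In radial glia against intermediate progenitors 6 partners were higher and 8 lower (37.3% of all genes). *Ptprz1*, the phosphatase that binds contactin-1, was at 2186 CPM in radial glia and 253 CPM in intermediate progenitors (3.08 ± 0.12), and *Ank3* was lower in radial glia (-3.37 ± 0.16). Thus radial glia were high in *Ptprz1* where *Cntn1* was at 8.64 CPM, and glial progenitors were high in both, with 2187 ± 401 CPM of *Ptprz1*.

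In newborn against upper-layer neurons 3 partners were higher and 5 lower (24.1% of all genes), the largest being *Tnr*, which encodes the matrix protein tenascin-R (15.9 against 161 CPM, -3.28 ± 0.22), and *Ptprz1* (181 against 857 CPM, -2.21 ± 0.12). In GABAergic against excitatory neurons 1 partner was higher and 10 lower (30.7% of all genes), while 3 relatives were higher. *Cntnap5c* was at 256 against 27.8 CPM (2.11 ± 0.23), and *Cntnap3* was at 51.1 CPM in GABAergic neurons and 0.168 CPM in excitatory neurons (adjusted p = 3e-11), where it had 5 UMIs in all. In layer 6 against upper-layer neurons 6 partners were higher and 2 lower (13% of all genes), with 2 relatives higher. *Cntnap5b* was at 191 against 3.18 CPM (5.83 ± 0.38) and *Lgi1*, a secreted ligand of Adam22, at 43.3 against 1.39 CPM (4.86 ± 0.44). Both were also higher in hippocampal than in upper-layer neurons (4.10 ± 0.63 and 2.84 ± 0.81), where 5 partners were higher and 3 lower (6% of all genes). Both were lower in layer 5 than in layer 6 neurons (-2.05 ± 0.30 and -1.16 ± 0.34), where 2 partners were higher and 2 lower (6.87% of all genes).

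Among GABAergic types, *Cntnap3* separated MGE from CGE interneurons, with 104 and 104 CPM in MGE and 0 and 5.65 CPM in CGE interneurons (4.94 ± 0.38), and *Ptprz1* was lower in MGE interneurons (107 against 337 CPM, -1.65 ± 0.14). Here 2 partners were higher and 2 lower (6.78% of all genes). In striatal neurons against cortical interneurons 4 partners were higher and 4 lower (15.4% of all genes). *Cntnap5c* (27.6 against 484 CPM, -4.15 ± 0.22) and *Lgi1* (4.67 against 65.8 CPM, -3.78 ± 0.41) were lower. In direct against indirect striatal neurons 3 partners were higher and 1 lower (3.51% of all genes). *Tnr* was at 27.9 CPM in direct and 481 CPM in indirect neurons (-4.05 ± 0.28), and *Cntnap3* at 89.2 and 8.40 CPM (3.44 ± 0.46). In Cajal-Retzius cells against excitatory neurons 5 partners were higher and 3 lower (15.2% of all genes). *Tnr* was lower in Cajal-Retzius cells (11.3 against 152 CPM, -4.01 ± 0.54), and *Cntnap5c* had 0 UMIs there, which allows up to 5.19 CPM, against 27.8 CPM. *Ptprg*, the phosphatase that binds *Cntn3* to *Cntn6* proteins, was highest in endothelial cells at 1614 ± 226 CPM, followed by Cajal-Retzius cells at 559 ± 118 CPM.

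The pattern of each gene over the 15 types was compared with that of 9741 other genes, as Pearson's r of log2(CPM + 1), taking the lower r of the libraries. These correlations are descriptions over types that share libraries. *Jakmip1* (r = 0.932), *Mturn* and *Frmd4b* were most like *Cntn2*. *Plppr5* (r = 0.898), *Rgs7* and *Parp8* were most like *Cntn1*, and *Ankrd55* (r = 0.899), *Blcap* and *Rnf227* most like *Cntnap2*. *Asxl3* (r = 0.862) and *Wdr47* were among the 3 most like *Cntnap5a*, and *Lgi1* (r = 0.828) and *Tbc1d9* among the 3 most like *Cntnap4*. Most like *Cntn5* were *Galnt9* (r = 0.829), *Trpc7* and *Galntl6*. *9130015G15Rik* (r = 0.796), *Atg16l2* and *Dnm3* were most like *Cntn4*, *Igfbp3* (r = 0.780), *Pcsk5* and *Adam12* most like *Cntn6*, and *Itsn2* (r = 0.690), *Mmd* and *Hs6st1* most like *Cntn3*. Among the 9 genes the closest pairs were *Cntn2* with *Cntnap5a* (r = 0.829 and 0.665 in the libraries), *Cntn5* with *Cntnap2* (0.715 and 0.735) and *Cntnap4* with *Cntnap5a* (0.696 and 0.782). *Cntn2* and its partner *Cntnap2* had r = 0.234 and 0.327.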

How the data were processed

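Single-cell 3' RNA libraries (10x Genomics v3.1 chemistry) were made from 2 papain-dissociated E16.5 cortex samples. The authors deposited raw UMI counts per gene and barcode, with no normalization, for barcodes kept by Cell Ranger, which is version 7.0.0 in the submitters' processing notes and 7.1.0 per the file headers, with build mm10. Whether introns were counted is not given in the sources used here. The labels name an *Eomes-Cre* line, whereas the study's text describes its E16.5 cortices as from C57BL/6J mice, and the labels were followed. Both samples form the WT group and are numbered in accession order. The members, the lists and the tests were chosen with earlier results of these data known.

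Cells with 1500 to 60000 UMIs and under 10% mitochondrial UMIs were kept. Cells were typed from marker lists. The broad gates asked for at least 4 UMIs (5 for radial glia, 3 for Cajal-Retzius cells), and subtypes for at least 3 UMIs and a lead of 0.25 in mean marker z-score. Radial glia, excitatory and GABAergic cells needed a 4-fold excess over the opposing list. Intermediate progenitors needed it over the GABAergic list alone. Glial progenitors needed a smaller excess. Cajal-Retzius cells needed no excess over the excitatory list, but no *Gad1* or *Gad2* UMI and few radial glia UMIs. These thresholds, the exclusion of cells with 10 or more *Ttr* UMIs or at least 5% globin, and the entry of striatal cells by their own markers were set after the data were seen. A total of 1910 and 3806 kept cells stayed without a type. The typed neurons and progenitors held 52.0 to 69.3% of the UMIs of each of the 9 genes in the kept cells. No doublets were removed in the main results.

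Raw UMIs were summed per library and type, giving 30 sums, and fitted together with edgeR 4.0.16 (R 4.3.3): TMM scaling, a floor of 10 counts in 2 or more of the sums for a gene to be tested, a quasi-likelihood F test blocked on library, and Benjamini-Hochberg adjustment over all genes tested. The SE is the absolute log2 fold change divided by the square root of F. Log2 ratios of a single library used log2(CPM + 1). The fit was tested on simulated data before use. In addition to the 9 genes, the text names from the partners and relatives the 2 called genes of each comparison with the largest absolute log2 fold change, at least 10 CPM on the higher side and the same direction in both libraries, and the 3 genes most like each member among those with at least 20 CPM in the highest type of each library, of which some are not reported here. *Ptprz1* in glial progenitors, *Ptprg*, *Cntnap1* and the marker genes were named in addition, after their values were seen. Alternatives were DESeq2 1.42.0, RLE factors, no filter, fits of the compared types alone, no library block, doublet removal (Scrublet in scanpy 1.11.5, 0.8% per 1000 barcodes), stricter gates, thinning to 1500 UMIs and leaving out a library. Positions and promoter windows are from RefSeq tables of GRCm38.p6, the assembly of mm10, where 9 of 9 genes matched by symbol and 7 had a window.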

Additional observations from a re-analysis of the deposited data

How the results depend on the processing

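The comparisons called 61 pairs of gene and comparison among the 9 genes. None of the alternatives run reversed a called direction. Of the 61 calls, 58 were kept with DESeq2, 60 with RLE factors, 61 without the filter on low counts, 60 with only the compared types in the fit, 58 without the library block, 58 without Scrublet doublets and 57 with 1 more gate UMI. Thinned cells left types for only 3 comparisons, with 15 called pairs of which 8 were kept, and moved the median of all genes by up to 0.158 (log2). Alternatives added after seeing the data kept 60 (GABAergic base only) and 57 (highest cell of each sum left out), and placing Cajal-Retzius cells among the neurons kept 7 of 7. The number of the 9 genes called moved by over 1.5 times as follows. For newborn against upper-layer neurons it was 7 without the filter (beside 13.5% of all genes) and 7 with only the compared types (37.5%), against 4 (24.1%). For layer 5 against layer 6 neurons it was 6 with only the compared types (17.3%), against 3 (6.87%). For direct against indirect striatal neurons it was 4 with only the compared types (7.21%) and 1 with DESeq2, RLE factors, no library block, the GABAergic base only or without the highest cells (3.04 to 3.52%), against 2 (3.51%). For radial glia against intermediate progenitors it was 1 in thinned cells (10%), against 7 (37.3%). The causes were not tested. The highest of the neuron and progenitor types stayed the same for 9 of 9 genes in each library alone, and for 5 of 9 in thinned cells. There the glial progenitor, Cajal-Retzius, layer 6, hippocampal and indirect striatal types fell under 20 cells in a library, and *Cntn3* was highest in direct striatal neurons. Without doublets the highest type stayed for 8 of 9, with *Cntn3* highest in Cajal-Retzius cells. With a single library no residual degrees of freedom remain, so leaving out a library gave values with no test: of 122 such values 106 moved by no more than the larger of the SD between libraries and the standard error, 16 moved by more and 0 reversed. Low counts limit *Cntn3*, *Cntn4* and *Cntn6*, and the subplate comparison was not run. The library block, which pairs the types of a library, stood in the main results.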
